A study of Mus musculus with 11 samples.

Results

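Matricellular and provisional matrix genes were followed in 11 RNA-seq libraries of mouse neonatal lung fibroblasts. The set holds 10 genes chosen by symbol, Fn1, Thbs1, Thbs2, Tnc, Postn, Sparc, Ccn1, Ccn2, Vcan and Tgfbi, of 32868 symbols in the count table. Each had 1 entry in the table, and all 10 passed the filter on low counts that left 9932 genes for testing. Postn passed that filter through the libraries of batch 1, since it was close to 0 in batch 2, so its batch difference is given by counts alone and is left out of the numbers of genes called between batches. The cells came from wild-type (WT) mice or from mice lacking peptidylarginine deiminase 2 (PAD2KO), the enzyme encoded by Padi2 that turns arginine side chains of proteins into citrulline, and had been sorted by flow cytometry. The labels name 2 batches. In the first, the 3 PAD2KO libraries (1, 2 and 3) stand beside WT 1, WT 3 and WT 4, and in the second, PAD2KO 6 and PAD2KO 7 stand beside WT 5, WT 6 and WT 7. The exact age, the sorting gate, how the deletion was made and whether any library was treated with TNF, which the series title names, are not given in the sources used here. What else differed between the batches is not given either.

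Matricellular proteins are secreted into the matrix but act mainly on cells, through integrins, syndecans and growth factors, instead of bearing load as collagen fibres do. Fibronectin (Fn1), the chondroitin sulphate proteoglycan versican (Vcan) and hyaluronan form the loose provisional matrix that fibroblasts lay down in development and after injury, before collagen replaces it. In lung, transforming growth factor beta and stretch raise many of these genes in fibroblasts and myofibroblasts, and Postn and Tnc are used as markers of matrix-producing mesenchyme.

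Counts assigned to named genes ranged from 962637 to 1421253 per library, so that a count of 0 allows a level of up to 2.11 to 3.12 CPM (counts-per-million, from counts scaled to equal library totals). Floors and intervals given here cover counting error only. Padi2 cannot check the genotype labels at this depth, since WT 5 had 1 count, WT 6 had 2, PAD2KO 1 had 1, PAD2KO 3 and PAD2KO 7 had 4 each, and the other 6 libraries had 0. No label states that replicates were separate animals or cultures, so the p-values speak of the spread among libraries alone, and that spread may be technical. Fibroblast markers were high in every library, with a summed level of 6518 to 17257 CPM over 10 genes. Of 9 epithelial and 7 endothelial markers, 6 and 4 had at most 3 counts in any library, and Sftpc and Scgb1a1 were at 0 throughout. Of 8 immune markers, Cd3e had at most 3 counts in any library. Summed immune markers were at 16.1 to 60.8 CPM in batch 1 and 65.9 to 303 CPM in batch 2, where S100a8 had the highest mean of them in WT, at 113 ± 40.7 CPM (SD, n = 3).

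Bases upstream of the transcription start are shown for 3 genes with a matched start site. These are Ccn1, higher in PAD2KO of batch 2, Postn, close to 0 in batch 2, and Vcan, higher in batch 2. RefSeq start sites on GRCm38.p6 were available for 7 of the 10 genes, not for Fn1, Thbs1 and Ccn2. For Thbs2 the first bases after the start were not found in a GENCODE transcript of the gene, so that its start was not matched. The window of 250 bases before the start was searched on both strands for TATAAA (the TATA box), CATTCC (the core bound by TEAD factors), TGANTCA (the AP-1 site) and the CArG box bound by serum response factor. These were found in 12.4%, 12.6%, 6.75% and 1.47% of 32851 such windows. Capitals mark the matches.
Ccn1, chr3:145649986-145650235, minus strand: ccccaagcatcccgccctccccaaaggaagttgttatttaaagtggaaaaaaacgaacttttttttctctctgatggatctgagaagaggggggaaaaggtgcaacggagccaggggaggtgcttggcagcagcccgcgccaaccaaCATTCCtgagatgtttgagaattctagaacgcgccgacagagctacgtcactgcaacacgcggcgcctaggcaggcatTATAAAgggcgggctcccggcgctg
Postn, chr3:54360857-54361106, plus strand: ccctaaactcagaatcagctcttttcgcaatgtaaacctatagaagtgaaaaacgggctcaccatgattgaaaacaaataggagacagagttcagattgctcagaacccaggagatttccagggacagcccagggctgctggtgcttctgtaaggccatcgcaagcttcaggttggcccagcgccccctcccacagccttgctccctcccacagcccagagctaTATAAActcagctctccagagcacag
Vcan, chr13:89742513-89742762, minus strand: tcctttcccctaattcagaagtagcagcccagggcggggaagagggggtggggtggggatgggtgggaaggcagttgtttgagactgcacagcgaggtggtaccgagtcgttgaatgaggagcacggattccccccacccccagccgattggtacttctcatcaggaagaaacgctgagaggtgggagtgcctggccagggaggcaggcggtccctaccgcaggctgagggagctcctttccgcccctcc
Ccn1 held CATTCC at 103 to 98 bases and TATAAA at 25 to 20 bases before its start. Postn held TATAAA at 26 to 21 bases before its start, and the Vcan window held none of these letters. The windows of Sparc, also higher in PAD2KO of batch 2, and of Tgfbi, lower there, are not shown and held none either. A match is a description of the sequence and not of binding.

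Per unit of transcript length, Sparc was the most abundant of the 10 mRNAs, with a median of 1369 TPM (transcripts-per-million, a unit that corrects for both length and library total) and a range of 752 to 1863 TPM over the 11 libraries. Next in order came Thbs1 at a median of 1030 TPM, Fn1 at 867 TPM, Ccn1 at 747 TPM and Tnc at 510 TPM. Thbs2 had a median of 210 TPM, Vcan 59.7 TPM, Tgfbi 19.1 TPM, Ccn2 16.7 TPM and Postn 3.59 TPM. Sparc exceeded Thbs1 in 11 of 11 libraries, Tnc exceeded Thbs2 in 11, Thbs2 exceeded Vcan in 11 and Vcan exceeded Tgfbi in 11. Neighbours that changed places were Thbs1 over Fn1, which held in 8 libraries, Fn1 over Ccn1 in 9, Ccn1 over Tnc in 10 and Tgfbi over Ccn2 in 7. The order also differed by group. Fn1 stood above Thbs1 in WT of batch 2, at 864 ± 41.2 against 562 ± 71.4 TPM (SD, n = 3). Together the 10 genes took 1.38% to 1.94% of counts of named genes, least in WT of batch 2 (1.38% to 1.42%) and most in WT of batch 1 (1.86% to 1.94%). PAD2KO libraries lay between, at 1.59% to 1.76% in batch 1 and 1.62% to 1.67% in batch 2.

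**Figure D1:**
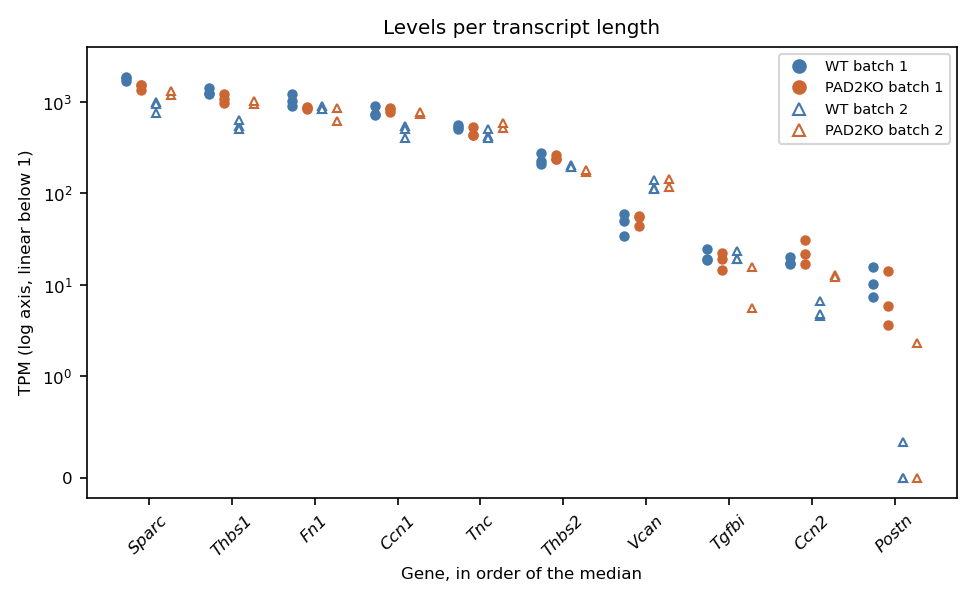
Deposited TPM of each gene (vertical axis, logarithmic above 1 and linear below) in order of the median, with 1 point per library, circles for batch 1 and triangles for batch 2, blue for WT and orange for PAD2KO. Sparc leads at a median of 1369 TPM, and the batch 2 points of Postn lie at or near 0.

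The deposited effective lengths, from which TPM is made, were not constant between libraries for all of these genes. For Vcan, whose splice forms differ by large chondroitin sulphate exons, they ran from 6071 to 9391 bases, and for Fn1 from 5993 to 7118 bases. Ccn2 had a length of 1143 bases in PAD2KO 2 and 1588 bases in PAD2KO 3, beside 2157 to 2184 bases in the other 9 libraries. Thbs1, Thbs2, Tnc, Sparc and Ccn1 varied less, with Thbs1 at 5532 to 5634 bases. Levels within a gene are therefore compared below on CPM, which does not use these lengths, and the effect of the lengths is given where it ends a call.

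PAD2KO fibroblasts of batch 2 had more Thbs1, Ccn1, Ccn2 and Sparc mRNA and less Tgfbi mRNA than WT fibroblasts of the same batch. These 5 of 10 genes passed an adjusted p of 0.05 in edgeR's quasi-likelihood test, 4 higher and 1 lower, where 3.11% of the 9932 genes tested were called, 1.40% higher and 1.71% lower. The genes were chosen with earlier results of these data known, so the share called among them is no independent support. The same holds for the other lists and comparisons below. The median log2 fold change was 0.36 over the 10 genes and -0.01 over all genes. That 0.36 lies between Tnc at 0.31 and Postn at 0.40 (SE 2.09). The Postn value rests on 1 count in each group, so the median is not a firm summary of the set. Without PAD2KO 7, which leaves PAD2KO 6 as the lone library of its group and assumes that it varies as the others do, 1 gene was called (Thbs1) and 65 of all genes in place of 309. DESeq2 called 3 of the 10, as did the test without WT 7.

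Thrombospondin-1 (Thbs1, chromosome 2, 118111876 to 118127133 on GRCm38, as for all gene positions here), a trimeric glycoprotein that activates latent transforming growth factor beta and binds CD47, showed the difference that survived most alternatives. It stood at 2669, 2501 and 3152 CPM in WT 5, WT 6 and WT 7, and at 4676 and 4958 CPM in PAD2KO 6 and PAD2KO 7. Batch 1 had 6528, 5645 and 5332 CPM in WT 1, WT 3 and WT 4, and 5831, 4804 and 4402 CPM in PAD2KO 1, PAD2KO 2 and PAD2KO 3. WT of batch 2 was thus the low group, and its 3 libraries lay below every other library. PAD2KO exceeded WT in batch 2 by 0.80 on the log2 scale (SE 0.122, adjusted p = 0.000178), 1.74-fold, and this passed in 18 of 18 alternative settings. Thbs2 (chromosome 17, 14665500 to 14694235), its close relative, did not follow. It was at 980 ± 37.7 CPM in WT (SD, n = 3) against 869 ± 37.6 CPM in PAD2KO (SD, n = 2) of batch 2, a difference of -0.17 (SE 0.113, adjusted p = 0.534). Both PAD2KO libraries, at 842 and 895 CPM, lay below the WT range of 954 to 1023 CPM.

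Ccn1 (chromosome 3, 145646976 to 145649981) and Ccn2 (chromosome 10, 24595442 to 24598683) encode the cysteine-rich integrin ligands CYR61 and CTGF, both well-known targets of YAP with TEAD factors. In WT 5, WT 6 and WT 7 Ccn1 was at 854, 803 and 641 CPM, and in PAD2KO 6 and PAD2KO 7 at 1136 and 1215 CPM. The groups did not overlap, and the 2 PAD2KO libraries lay within the 1032 to 1329 CPM seen over batch 1. The rise was 0.62 (SE 0.123, adjusted p = 0.00323), which was lost without PAD2KO 7 (0.57, adjusted p = 0.114). Ccn2 was much scarcer, with 17, 11 and 9 counts in WT 5, WT 6 and WT 7 and 29 in each of PAD2KO 6 and PAD2KO 7, or 12.6, 8.74 and 9.66 CPM against 23.8 and 23.0 CPM. Its rise of 1.16 (SE 0.296, adjusted p = 0.0250) passed in 10 of 18 alternatives, with adjusted p-values from 0.0182 to 0.202. Among the losses were DESeq2 (1.19, adjusted p = 0.124), offsets from the deposited lengths (1.17, adjusted p = 0.148) and leaving out WT 6, WT 7, PAD2KO 6 or PAD2KO 7 (1.04 to 1.19).

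Sparc (chromosome 11, 55394500 to 55423183), a calcium-binding protein that assists collagen assembly, stood at 1266, 1238 and 947 CPM in WT 5, WT 6 and WT 7 and at 1513 and 1625 CPM in PAD2KO 6 and PAD2KO 7. Again the WT libraries were the lower ones with no overlap. It rose by 0.45 (SE 0.115, adjusted p = 0.0270) and passed in 13 of 18 alternatives. The call ended with the deposited lengths (0.47, adjusted p = 0.0917), in batch 2 fitted alone (0.45, adjusted p = 0.0816), and without PAD2KO 6 (0.50), PAD2KO 7 (0.39) or WT 7 (0.32), with adjusted p-values of 0.0531, 0.371 and 0.108. Tgfbi (chromosome 13, 56609523 to 56639562), a secreted adhesion protein with fasciclin domains that transforming growth factor beta induces, moved the other way. WT 5, WT 6 and WT 7 had 42.1, 32.6 and 50.5 CPM, PAD2KO 6 had 23.8 CPM and PAD2KO 7 had 11.9 CPM. PAD2KO 7 was the lowest of all 11 libraries for this gene and PAD2KO 6 the next lowest. The fall was -1.21 (SE 0.290, adjusted p = 0.0165) and passed in 13 of 18 alternatives. Without PAD2KO 7 it was -0.79 (adjusted p = 0.469), by DESeq2 -1.20 (adjusted p = 0.0557), with the deposited lengths -1.04 (adjusted p = 0.289) and without WT 7 -1.07 (adjusted p = 0.0652).

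Tenascin-C (Tnc, chromosome 4, 63959785 to 64047015), a hexameric glycoprotein of developing and injured tissue, was at 2479, 2374 and 2946 CPM in WT 5, WT 6 and WT 7 and at 3033 and 3427 CPM in PAD2KO 6 and PAD2KO 7. The groups did not overlap, but the difference of 0.31 did not pass (SE 0.114, adjusted p = 0.15). It did pass without WT 7, the highest WT library (0.41, adjusted p = 0.0431). Padi2 lies on the same chromosome, at 140906344 to 140952586. Fibronectin (Fn1, chromosome 1, 71585520 to 71653200) was at 5103, 5320 and 5244 CPM in WT 5, WT 6 and WT 7, with PAD2KO 6 at 5018 CPM close beneath them and PAD2KO 7 at 3614 CPM, the lowest library of the series for this gene. The difference of -0.28 (SE 0.130, adjusted p = 0.330) passed only without PAD2KO 6 (-0.53, adjusted p = 0.0477), which leaves PAD2KO 7 alone in its group. Versican (Vcan, chromosome 13, 89655312 to 89742509) overlapped between the genotypes, at 827, 890 and 724 CPM in WT against 703 and 837 CPM in PAD2KO, a difference of -0.08 (SE 0.123, adjusted p = 0.842). Periostin (Postn, chromosome 3, 54361109 to 54391037), a fasciclin protein of fibrous and fibrotic tissue, had 1 count in WT 5, 1 count in PAD2KO 6 and 0 counts in WT 6, WT 7 and PAD2KO 7. At this depth no genotype difference in Postn could be seen in batch 2.

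**Figure D2:**
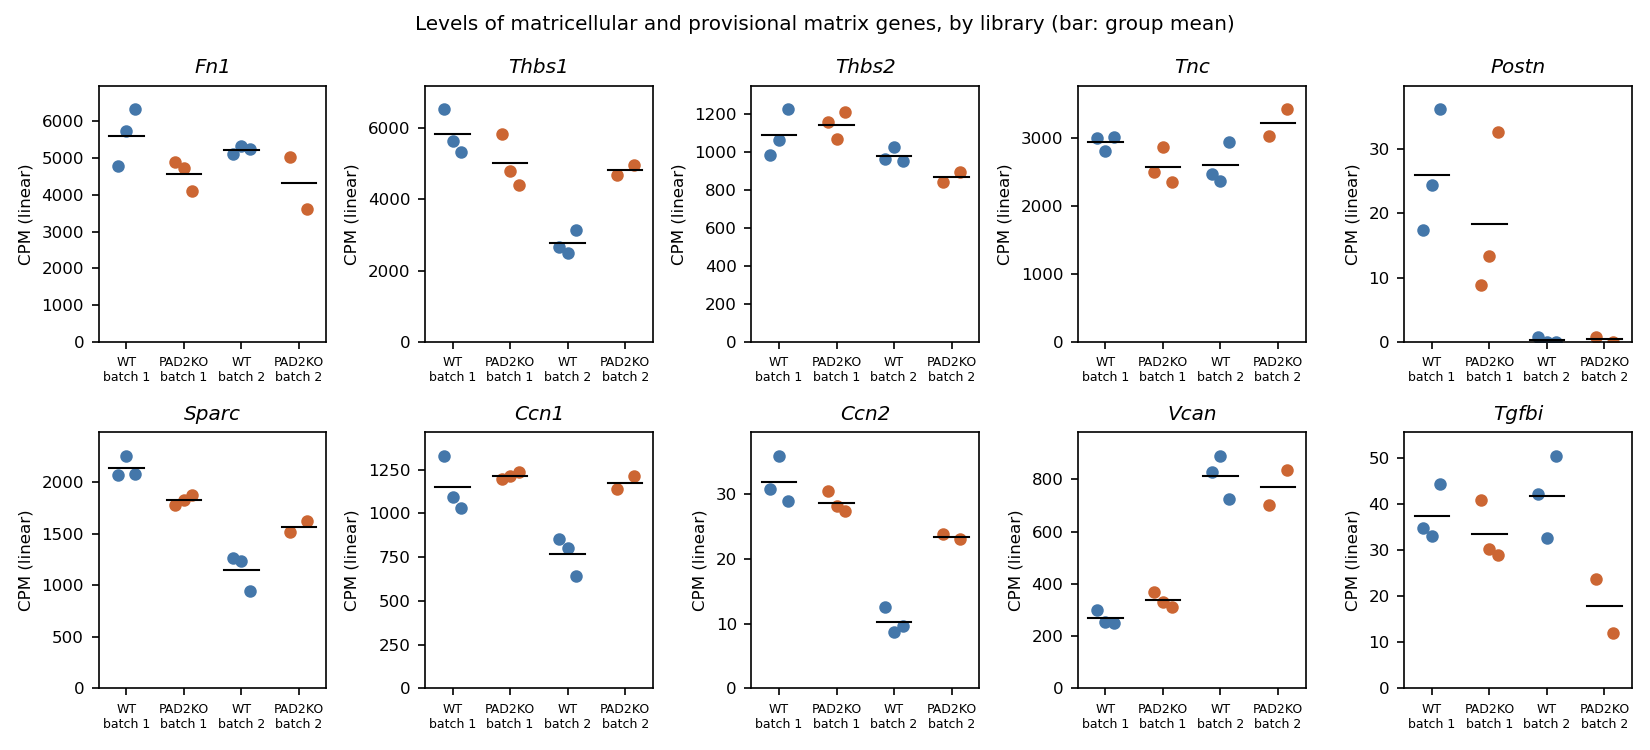
CPM on linear axes from 0 for each of the 10 genes, with 1 point per library, blue for WT and orange for PAD2KO, and a black bar at the group mean. For Thbs1 the WT libraries of batch 2, at 2501 to 3152 CPM, lie below every other library, and Vcan and Postn separate the batches in both genotypes.

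Smooth muscle markers were higher in sum in PAD2KO of batch 2, as were Thbs1, Ccn1, Ccn2 and Sparc, while Tgfbi was lower. Their summed level over 8 genes was 1616 to 2108 CPM in WT against 4493 to 5763 CPM in PAD2KO of batch 2, beside 7282 to 7953 CPM and 5473 to 8550 CPM in the same order in batch 1, with none of the 8 at 0. Acta2, smooth muscle actin, had a mean of 1247 ± 114 CPM for WT (SD, n = 3) against 3500 ± 647 CPM for PAD2KO (SD, n = 2) in batch 2. Of 7 such markers tested, 5 were higher in PAD2KO of batch 2 and 0 lower, where 3.11% of all genes were called, and without PAD2KO 7 there were 2 (Acta2 and Cnn1). Of 9 fibroblast markers tested, 1 was higher and 2 were lower in PAD2KO of batch 2, where 3.11% of all genes were called. DESeq2 called Col3a1, Dcn and Thy1. Dcn had a mean of 571 CPM in WT against 193 CPM in PAD2KO of batch 2, and Thy1 of 70.9 against 126 CPM. Summed mesothelial markers over 5 genes were at 31.1 to 64.2 CPM in WT against 62.8 to 87.8 CPM in PAD2KO of batch 2, with Calb2 at no more than 3 counts in any library. Summed immune markers over 8 genes were at 179 to 303 CPM and 65.9 to 124 CPM in the same order. The part of these cell types in the results was not tested, and in bulk libraries fewer cells of a type and less RNA per cell cannot be told apart.

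Batch 1 showed no change of these genes between the genotypes that passed the test. In edgeR's quasi-likelihood test 0 of 10 were called, where 0.131% of all genes were called (13 of 9932). An unadjusted p under 0.05 was reached by 3 of the 10 and by 545 of all genes, and DESeq2 also called 0 of the 10. Those 3 were Vcan, Fn1 and Sparc. Vcan was at 301, 253 and 250 CPM in WT 1, WT 3 and WT 4 and at 368, 332 and 313 CPM in PAD2KO 1, PAD2KO 2 and PAD2KO 3. All PAD2KO libraries were above all WT libraries, with a difference of 0.33 (SE 0.115, adjusted p = 0.549). Sparc was at 2070, 2258 and 2085 CPM in WT against 1777, 1828 and 1873 CPM in PAD2KO, here with the PAD2KO libraries below the WT ones, at -0.23 (SE 0.103, adjusted p = 0.842). Fn1 was at 4774, 5730 and 6326 CPM in WT against 4900, 4716 and 4099 CPM in PAD2KO, at -0.30 (SE 0.115, adjusted p = 0.701), and these ranges overlapped.

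The other genes of batch 1 overlapped between the genotypes. Thbs1 differed by -0.22 (SE 0.110), Tnc by -0.19 (SE 0.102) and Thbs2 by 0.07 (SE 0.100). Ccn1 was at 1151 ± 157 CPM in WT against 1214 ± 20.3 CPM in PAD2KO (SD, n = 3 each), a difference of 0.08 (SE 0.110). Ccn2, at 31.9 ± 3.64 and 28.7 ± 1.60 CPM (SD, n = 3 each), differed by -0.16 (SE 0.211), with a sign that turned when the deposited lengths were used (0.32). Tgfbi was at 37.4 ± 6.04 and 33.4 ± 6.58 CPM (SD, n = 3 each). Postn had 22, 34 and 45 counts in WT 1, WT 3 and WT 4 and 11, 19 and 44 counts in PAD2KO 1, PAD2KO 2 and PAD2KO 3, the widest relative spread among these genes in batch 1. Its difference of -0.50 had an SE of 0.388. Over the 10 genes the median was -0.18, beside 0.00 over all genes tested, with none called.

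**Figure D3:**
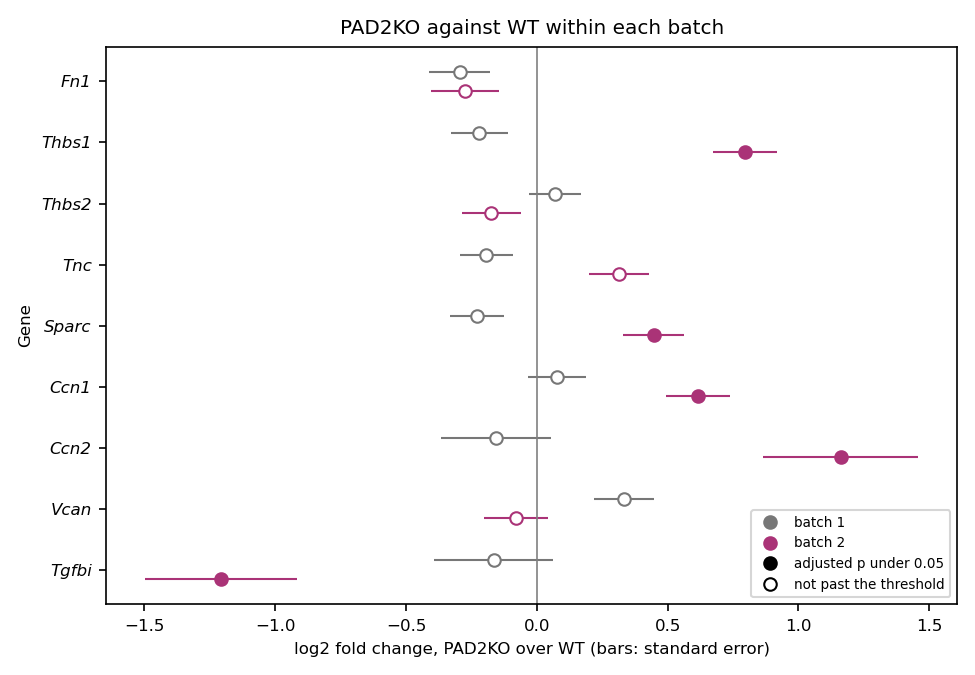
Log2 fold change of PAD2KO over WT (horizontal axis) for 9 of the genes within batch 1 (grey) and batch 2 (purple), with bars for the standard error and filled points where the adjusted p was under 0.05. Postn is left out because it was at or under the floor of 3 counts in batch 2. Filled points occur in batch 2 alone, from -1.21 for Tgfbi to 1.16 for Ccn2.

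Whether the genotype difference itself differed between the batches was tested with the interaction of genotype and batch. Thbs1 and Sparc were called, 2 of the 10 genes, where 1.62% of all genes were called. For Thbs1 the difference between PAD2KO and WT was 1.02 higher in batch 2 than in batch 1 (SE 0.165, adjusted p = 0.000754), a call that held in 17 of 17 alternatives. Sparc was 0.67 higher (SE 0.155, adjusted p = 0.0190), and held in 14 of 17 alternatives, not with the deposited lengths (0.74), without PAD2KO 7 (0.62) or without WT 3 (0.64). Values for Ccn2 (1.32, adjusted p = 0.0604), Ccn1 (0.54, adjusted p = 0.109), Tnc (0.51, adjusted p = 0.0999) and Tgfbi (-1.04, adjusted p = 0.196) did not pass, so that for these a difference between the batches was not shown. Tnc did pass by DESeq2 (0.52, adjusted p = 0.0423), without the count filter (0.54, adjusted p = 0.0246) and without WT 7 (0.60, adjusted p = 0.0209). Ccn1 passed without the count filter (0.57, adjusted p = 0.0248). Fn1 at 0.02 (SE 0.173) and Thbs2 at -0.24 (SE 0.151) were the smallest, and Vcan was at -0.42 (SE 0.168, adjusted p = 0.288).

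Across both batches with batch as a term, 0 of 10 genes were called by edgeR's quasi-likelihood test and 0 by DESeq2, where 0.191% of all genes were called. An unadjusted p under 0.05 was reached by 3 of the 10 and by 760 of all genes. Those 3 were Fn1 at -0.29 (SE 0.0938, adjusted p = 0.392), Ccn1 at 0.32 (SE 0.105, adjusted p = 0.397) and Tgfbi at -0.56 (SE 0.211, adjusted p = 0.492). Thbs1, which differed strongly in 1 batch, was at 0.24 with the widest standard error of the abundant genes (SE 0.183). Fn1 was at -0.30 in batch 1 and -0.28 in batch 2 and passed in neither, and the batch 2 value averages unlike libraries, being -0.53 without PAD2KO 6 and -0.056 without PAD2KO 7.

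Between the batches, WT fibroblasts had less mRNA of 4 matricellular genes and more of versican. Thbs1, Sparc, Ccn1 and Ccn2 fell and Vcan rose in batch 2, 5 of the 9 genes other than Postn, where 22.3% of all genes were called, 11.7% higher and 10.6% lower. All 5 calls passed in 17 of 17 alternatives. The WT libraries of batch 2 also serve in the genotype comparison of that batch, so that the 2 comparisons are not independent. Batch and all that changed with it cannot be told apart.

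Vcan rose 3.04-fold, from 268 ± 28.8 to 814 ± 84.2 CPM in WT (SD, n = 3 each), or by 1.60 on the log2 scale (SE 0.115, adjusted p = 1.4e-11). The lowest WT library of batch 2, at 724 CPM, was far above the highest WT library of batch 1, at 301 CPM. Postn went from 22, 34 and 45 counts in batch 1 to 1, 0 and 0 counts in batch 2. That is 101 against 1 counts in all, or 91.8 times as much in batch 1, for which the exact conditional Poisson interval at 95%, covering counting error only, ran from 16.1 to 3662. Ccn2 fell by 1.61 (SE 0.256, adjusted p = 2.07e-05) from 31.9 ± 3.64 to 10.3 ± 1.99 CPM (SD, n = 3 each). Thbs1 fell by 1.07 (SE 0.112, adjusted p = 2.74e-08), Sparc by 0.89 (SE 0.104, adjusted p = 1.61e-07) and Ccn1 by 0.59 (SE 0.112, adjusted p = 0.000210), in each case with no overlap between the batches. Fn1 (-0.10), Thbs2 (-0.15), Tnc (-0.18) and Tgfbi (0.15) overlapped and did not pass, with adjusted p-values of 0.584, 0.307, 0.227 and 0.712.

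In PAD2KO fibroblasts Vcan also rose and Postn was also close to 0 in batch 2, while Thbs1, Sparc, Ccn1 and Ccn2 did not pass there. Vcan rose by 1.19 (SE 0.123, adjusted p = 4.8e-08), from 338 ± 28.1 CPM (SD, n = 3) to 770 ± 94.7 CPM (SD, n = 2). Postn went from 11, 19 and 44 counts to 1 and 0, 74 against 1 counts in all and a ratio of 45.7 (7.95 to 1828 by the same interval). Thbs2, Tnc and Tgfbi were called too, making 4 of the 9 genes other than Postn (2 higher and 2 lower) where 18.7% of all genes were called, 9.52% higher and 9.13% lower. Thbs2 fell by 0.40 (SE 0.113, adjusted p = 0.0140) from 1144 ± 71.3 CPM (SD, n = 3) to 869 ± 37.6 CPM (SD, n = 2), a call lost without PAD2KO 3 (-0.36, adjusted p = 0.0560) or PAD2KO 6 (-0.35, adjusted p = 0.131). Tgfbi fell by 0.90 (SE 0.294, adjusted p = 0.0319). That call ended without PAD2KO 7 (-0.49, adjusted p = 0.419) or PAD2KO 1 (-0.73, adjusted p = 0.121), with the deposited lengths (-0.80, adjusted p = 0.227), by DESeq2 (-0.89, adjusted p = 0.135) and in PAD2KO fitted alone (-0.89, adjusted p = 0.0528). Tnc rose by 0.33 (SE 0.113, adjusted p = 0.0438), a call kept in 7 of 17 alternatives and lost with the deposited lengths (0.32, adjusted p = 0.11), in PAD2KO fitted alone (0.33, adjusted p = 0.0697) and without any 1 of 8 libraries (WT 1, 3, 5 or 6 and PAD2KO 1, 3, 6 or 7, at 0.23 to 0.41).

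In PAD2KO the batch difference of Thbs1 was -0.06 (SE 0.123), of Ccn1 -0.05 (SE 0.123), of Sparc -0.22 (SE 0.116) and of Ccn2 -0.29 (SE 0.250), with adjusted p-values of 0.807, 0.847, 0.207 and 0.475. PAD2KO libraries of batch 2 lay inside the batch 1 PAD2KO range for Thbs1, and below it for Sparc (1513 and 1625 against 1777 to 1873 CPM). For Ccn2 they lay just below it, at 23.0 and 23.8 against 27.5 to 30.5 CPM. The interaction given above is also the test of this difference between genotypes, and it passed for Thbs1 and Sparc but not for Ccn1 and Ccn2. Fn1 differed by -0.08 (SE 0.129), with PAD2KO 6 above and PAD2KO 7 below the batch 1 range of 4099 to 4900 CPM.

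**Figure D4:**
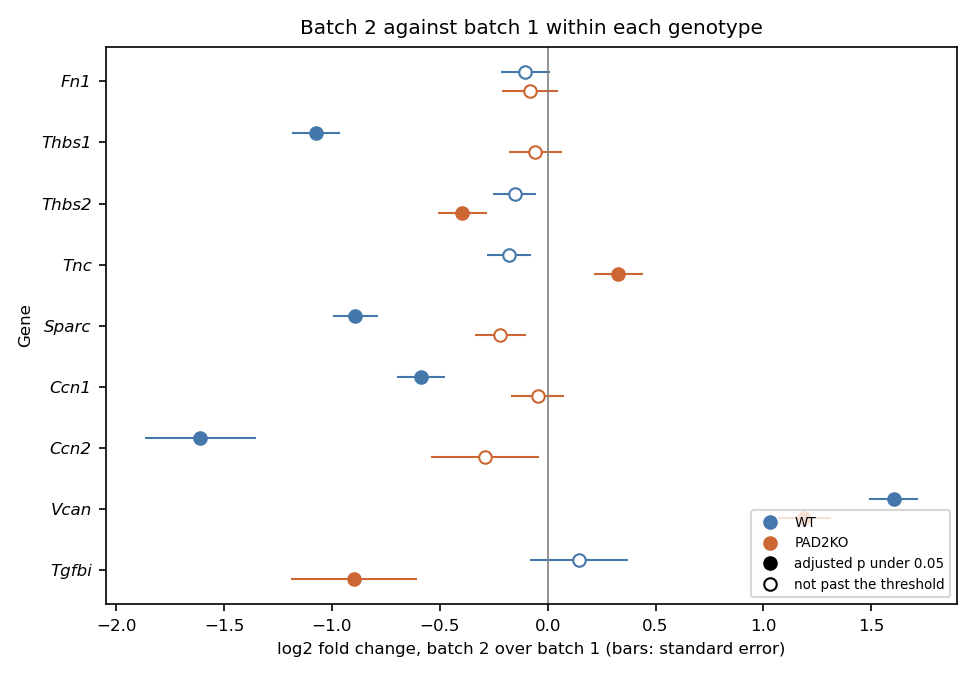
Log2 fold change of batch 2 over batch 1 (horizontal axis) for 9 of the genes in WT (blue) and PAD2KO (orange), with bars for the standard error and filled points where the adjusted p was under 0.05; Postn is left out because it was at or under the floor in batch 2. Thbs1 is at -1.07 in WT and -0.06 in PAD2KO, and Vcan is higher in both.

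The summed level of fibroblast markers, to which Col3a1 and Col1a1 added most in batch 1, was lower in batch 2 in both genotypes, with 13224 to 17257 CPM and 6927 to 7802 CPM in WT of batch 1 and batch 2, and 12511 to 14391 CPM and 6518 to 7153 CPM in PAD2KO. Single markers did not all follow the sum. Of 9 tested, 5 fell and 0 rose in WT, where 10.6% of all genes were called lower and 11.7% higher. Pdgfra (0.20), Vim (0.21), Thy1 (0.14) and Dcn (-0.14) did not pass there. In PAD2KO 6 fell and 2 rose, Vim by 0.50 and Thy1 by 0.88, where 9.13% of all genes were called lower and 9.52% higher. Mesothelial markers went from 249 to 413 CPM down to 31.1 to 64.2 CPM in WT, and from 128 to 368 CPM down to 62.8 to 87.8 CPM in PAD2KO. Immune markers were higher in sum in batch 2, going from 16.1 to 60.8 CPM to 179 to 303 CPM in WT. Single immune markers did not all rise. In WT the mean of S100a8 went from 0 to 113 CPM, while Ptprc had 7 counts in all in batch 1 and 4 in batch 2. S100a8 passed the filter on low counts through the libraries of batch 2, so its batch difference is given by counts alone. These were 0 in WT of batch 1 and 420 in WT of batch 2. The part of these cell types in the batch differences of Thbs1, Sparc, Postn and Vcan was not tested.

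Of 12 genes tested that encode receptors of these proteins, 4 passed between the genotypes in batch 2, where 3.11% of all genes were called. Higher in PAD2KO were 3, Itgb1 at 0.77 (SE 0.119, adjusted p = 0.000172), Itga8 at 0.91 (SE 0.168, adjusted p = 0.00145) and Itga5 at 0.51 (SE 0.139, adjusted p = 0.0428), and 1 was lower, the syndecan Sdc1 at -0.79 (SE 0.144, adjusted p = 0.00125). The median over the 12 was -0.15, beside -0.01 over all genes. Itga5 with Itgb1 forms the classical fibronectin receptor, and Itga8 with Itgb1 binds fibronectin and tenascin-C. Itgb1 was at 499 ± 43.1 CPM in WT (SD, n = 3) against 851 ± 104 CPM in PAD2KO (SD, n = 2) of batch 2, against 705 ± 80.1 and 594 ± 21.5 CPM in batch 1 (SD, n = 3 each). In the interaction of genotype and batch 1.62% of all genes were called. It holds the same batch 2 difference by which these 4 genes were picked, so it is no separate support for them. The interaction passed for all 4, at 1.02 for Itgb1, 0.86 for Itga8, 0.77 for Itga5 and -0.95 for Sdc1, but without PAD2KO 7 for Itgb1 alone (0.88, adjusted p = 0.0182). Without PAD2KO 7, Itgb1 alone was called in batch 2 (0.64, adjusted p = 0.0325), and Itga8 (0.68), Itga5 (0.49) and Sdc1 (-0.56) were not. In batch 1, edgeR and DESeq2 called 0 receptor genes, and 2 of 12 reached an unadjusted p under 0.05 in edgeR.

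Genes induced by YAP, serum response factor or transforming growth factor beta, listed as a reference for Ccn1 and Ccn2, were higher in PAD2KO of batch 2 for 4 of 14 tested and lower for 0 (3.11% of all genes were called), with a median of 0.42. Vcl, the focal adhesion protein vinculin, was at 0.93 (SE 0.131, adjusted p = 6.43e-05), the YAP target Ankrd1 at 0.86 (SE 0.205, adjusted p = 0.0165), the YAP target Amotl2 at 0.52 (SE 0.137, adjusted p = 0.0294) and the serum-induced gene Fos at 0.44 (SE 0.121, adjusted p = 0.0377). Without PAD2KO 7, 1 of them was called (Vcl, 0.73, adjusted p = 0.0180). In batch 1, edgeR and DESeq2 called 0 of 14, with 2 at an unadjusted p under 0.05 in edgeR and a median of -0.08. Between the batches in WT, 1 of 14 rose and 6 fell, where 11.7% of all genes were called higher and 10.6% lower. Vcl fell by 1.54, Fos by 0.80 and Amotl2 by 0.86. Ankrd1 went the other way in WT, from 37.5 ± 9.52 to 59.7 ± 4.77 CPM (SD, n = 3 each). In PAD2KO, 3 rose and 1 fell, where 9.52% of all genes were called higher and 9.13% lower. Ankrd1 was at 1.42, Axl at 0.56, Fosb at 0.61 and Vcl at -0.41.

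**Figure D5:**
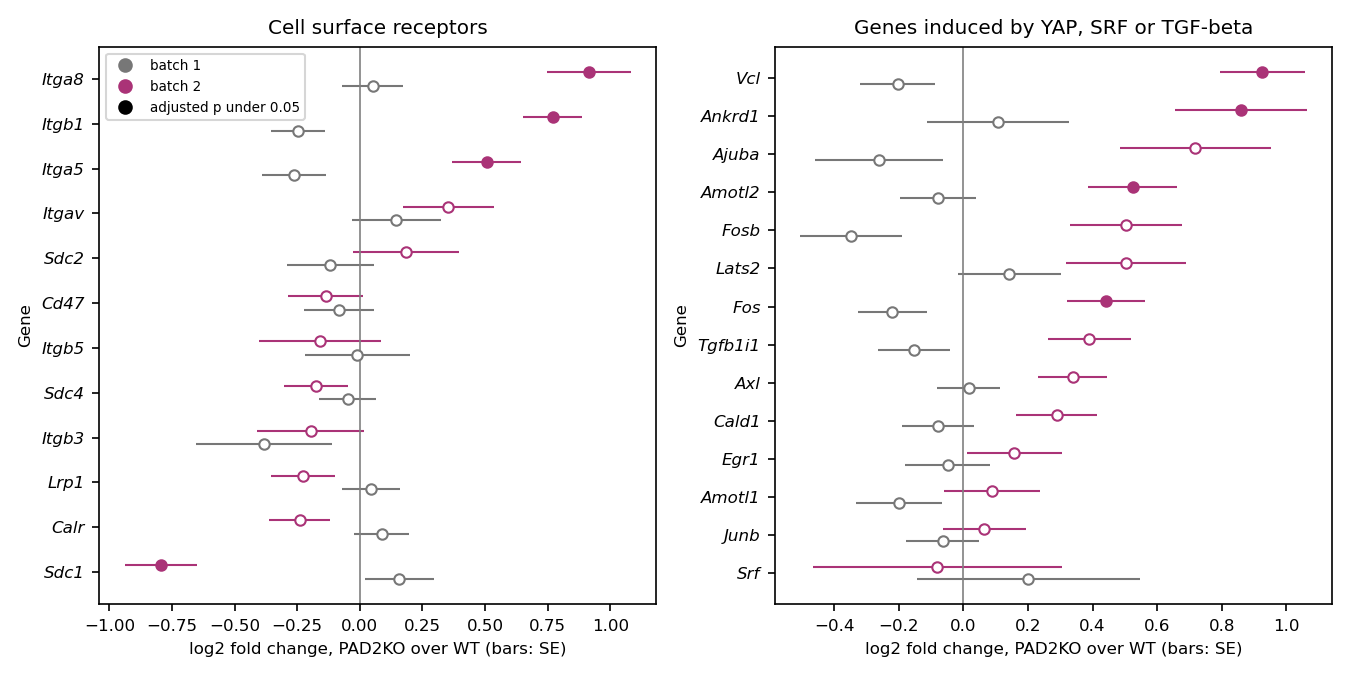
Log2 fold change of PAD2KO over WT (horizontal axes) in batch 1 (grey) and batch 2 (purple) for receptors (left, 12 genes) and for the reference genes of Ccn1 and Ccn2 (right, 14 genes), with bars for the standard error and filled points where the adjusted p was under 0.05. In batch 2, Itgb1 lies at 0.77 and Vcl at 0.93, and 0 genes are filled in batch 1.

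Assembly partners and proteases were mixed. Of all genes, 0.131% were called between the genotypes in batch 1 and 3.11% in batch 2. Of 13 partners tested in batch 2, Ltbp2, a latent growth factor binding protein (0.64, adjusted p = 0.00640), and the fibrillar collagen gene Col5a1 (0.48, adjusted p = 0.0336) were higher in PAD2KO and Col3a1 (-0.55, adjusted p = 0.00914) was lower. The versican-cleaving protease gene Adamts15 was lower in PAD2KO in batch 1 (-0.66, adjusted p = 0.0182) and in batch 2 (-1.38, adjusted p = 0.00485), 1 of 8 proteases called in each. Over both batches 1 of the 8 was called lower, where 0.191% of all genes were called, and DESeq2 called Adamts15 there. Of the 12 further matricellular genes tested, 1 was called in batch 2, Mfge8, an integrin ligand that bridges dying cells to phagocytes (0.44, adjusted p = 0.0437), while of the 7 hyaluronan and lectican genes edgeR and DESeq2 called 0, with 2 at an unadjusted p under 0.05 in edgeR. Without PAD2KO 7, Ltbp2 was the only one of these still called in batch 2.

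Between the batches more genes of these lists were called, as were more of all genes, 11.7% higher and 10.6% lower in WT and 9.52% higher and 9.13% lower in PAD2KO. In WT, 10 of 13 partners fell, with the smallest p-values for Col3a1 (-2.19), Tgm2, a matrix cross-linking enzyme (-2.06), and Fbn1 (-0.99), and in PAD2KO 6 fell and 1 rose. Versican proteases fell, Adamts15 at -3.75 in WT and -4.47 in PAD2KO, Adamts5 at -2.16 and -1.98 and Adamts1 at -1.56 and -1.35, while Adamts4 rose by 0.89 and 1.35. In each genotype this made 1 higher and 3 lower of 8 proteases. The hyaluronan receptor Cd44, a partner of versican's matrix, rose by 1.07 in WT and 1.74 in PAD2KO, and the hyaluronan synthase Has1 by 2.37 and 1.3. In all, 3 of 7 hyaluronan and lectican genes rose in each genotype, and 1 fell in WT and 2 in PAD2KO. Receptors rose for 6 of 12 genes and fell for 3 in WT, and rose for 7 and fell for 1 in PAD2KO. Further matricellular genes rose for 3 of 12 and fell for 8 in WT, with Sparcl1, the closest relative of Sparc, at -2.65, Ccn5 at -3.10 and Smoc1 at 2.56. In PAD2KO 3 rose and 4 fell, with Sparcl1 at -2.60, Ccn5 at -4.18 and Cthrc1 at -1.47. Osteopontin (Spp1), named after its values were seen, went from 584 ± 239 to 7709 ± 464 CPM in WT (SD, n = 3 each), a rise of 3.72 (SE 0.387, adjusted p = 0.000311), and rose by 3.38 in PAD2KO.

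Likeness of pattern was measured as the root mean square difference of centred log2 CPM over the 11 libraries, among the 5611 or 5612 genes whose log2 CPM averaged 5 or more. Nearest to Sparc was the tropomyosin gene Tpm1, at 0.0566 beside a spread of 0.365 of Sparc itself, and next came Arhgap1 and Phldb2. For Thbs1 the nearest were Evc (0.176, beside 0.443), Phldb2 and the tropomyosin gene Tpm2, and for Ccn2 they were the myosin light chain gene Myl9 (0.176, beside 0.627), F3 and Vcl. Ccn1 was nearest to Clic4 (0.0852, beside 0.309), and Tnc to the focal adhesion genes Zyx (0.0736, beside 0.166) and Tln1. Vcan was nearest to Thbd (0.110, beside 0.716), Gpd2 and Fgf7. Postn, whose spread was the widest at 1.84, was nearest to Ednra (0.481). All of these points share the libraries and the split by batch, and the ranking is a description of these libraries.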

How the data were processed

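RNA-seq was made from 11 samples of sorted mouse neonatal lung fibroblasts, with a SMARTer kit following SmartSeq2, per the labels' protocols; the protocol as given names no molecular identifiers, so copies cannot be told from molecules. The authors deposited a table of estimated counts, TPM and effective gene lengths per library, per the file headers. The submitters' processing notes name fastp, Salmon 1.3.2, DESeq2 1.46.0 and the build GRCm39, without their roles; no source used here gives the annotation or the use of strand. The deposited TPM values were used for levels between genes. Because such counts come from a model that splits ambiguous reads, close relatives such as Thbs1 and Thbs2 may trade reads.

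Of 56065 entries, 23133 had no symbol (3.80% to 6.40% of counts) and were left out. The other 32932 were summed to 32868 symbols (55 with several entries) and rounded to whole numbers. The members, gene lists and comparisons were chosen with earlier results of these data known. The text names all 10 members, up to 3 genes per further list by smallest p, every gene called where at most 4 were, and the 3 genes nearest in pattern; Spp1 was added after its values were seen. One gene each of the immune marker list and of the reference list for Ccn1 and Ccn2 is not reported here, and both lists were counted without it.

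Tests used edgeR 4.0.16 under R 4.3.3 (TMM, filterByExpr on genotype, robust quasi-likelihood fit of 4 group means, or of genotype and batch) on all 11 libraries, with Benjamini-Hochberg adjustment over 9932 genes at 0.05; the common biological coefficient of variation was 0.1145. Standard errors are the log2 fold change divided by the root of the F statistic. CPM used TMM totals. DESeq2 1.42.0, its size factors, no count filter, length offsets, no Rn18s (8.52% to 12.1% of counts), each batch or genotype alone, a replicate block and leaving out each library were the alternatives. Tests were checked on simulated counts. Python 3.11.15, NumPy 2.4.6, pandas 2.3.3 and SciPy 1.17.1 were used for summaries. Gene positions came from GENCODE M21 on GRCm38 and promoters from RefSeq on GRCm38.p6, not the submitters' build, so they show only where genes lie.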

Additional observations from a re-analysis of the deposited data

Results flagged for a closer look

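For 2 genes the difference between PAD2KO and WT was itself different in the 2 batches by edgeR's interaction test, where 1.62% of all genes were called. Thbs1 had a value of 1.02, with a higher level in PAD2KO in batch 2 and a lower mean in PAD2KO in batch 1. Sparc had a value of 0.67, a call kept in 14 of 17 alternatives, with a higher mean in PAD2KO in batch 2 and a lower one in batch 1. The batch 1 differences, -0.22 for Thbs1 and -0.23 for Sparc, did not pass (edgeR adjusted p = 0.904 and 0.842). Opposite directions in the 2 batches were thus not shown.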

How the results depend on the processing

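For 58 gene-level results, 1015 alternative values were computed. Of these, 949 kept their direction and side of the threshold, 40 lost the threshold, 7 gained it and 19 changed sign. All sign changes were of values that did not pass the test. The 10-gene order of levels was the same from counts per length without Rn18s.

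In PAD2KO against WT of batch 2, the number of the 10 genes called was 5, and 3 by DESeq2, 3 in batch 2 alone, 2 with length offsets and 3 with the replicate block; leaving out a library gave 1 to 5. For batch 2 against batch 1 in PAD2KO, with Postn counted, it was 5, and 3 in PAD2KO alone, 2 with length offsets and 3 to 5 without a library. For the interaction it was 2, and 4 without the count filter, 1 with length offsets and 1 to 3 without a library. Over both batches it was 0, and 1 (Ccn1, 0.34) without the count filter. The causes were not tested, except that fits without a library or batch hold fewer samples.

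Sign changes were Ccn2 (0.32) in batch 1 and Vcan (0.0896) in batch 2 with length offsets, Vcan over both batches without the batch term (-0.0828), and, with the replicate block, Tgfbi in batch 1 (0.0292), Fn1 in the interaction (-0.0873) and Thbs2 over both batches (0.0128). Leaving out a library gave -0.2119 to 0.0404 for Vcan in batch 2. In the batch difference of PAD2KO it gave -0.3365 to 0.1247 for Fn1, -0.1435 to 0.0706 for Thbs1 and -0.1054 to 0.0033 for Ccn1. It gave -0.2342 to 0.2327 for Fn1 in the interaction. Over both batches it gave -0.0788 to 0.0052 for Thbs2, -0.0454 to 0.0953 for Tnc and -0.009 to 0.13 for Sparc.

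Counts of all genes called moved by over 1.5 times as follows. Batch 1: 13, and 8 by DESeq2, 22 alone, 58 without the filter, 2 with length offsets, 8 with the block, 5 to 20 without a library. Batch 2: 309, and 529 without the filter, 89 with length offsets, 65 to 371 without a library. Batch in WT: 2213, and 1354 with length offsets. Batch in PAD2KO: 1853, and 1119 by DESeq2, 863 with length offsets, 1079 to 1947 without a library. Interaction: 161, and 323 without the filter, 26 with length offsets, 33 to 233 without a library. Both batches: 19, and 4 without the batch term, 141 without the filter, 2 with length offsets, 4 with the block, 8 to 26 without a library.

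For replicate numbers shared by the genotypes, deviations from the group means correlated by 0.0485, 0.0106, 0.0297 and 0.0016 for numbers 1, 3, 6 and 7 over 9932 genes. Groups of 2 or 3 libraries and counting error limit this check, so pairing by replicate number was neither shown nor excluded. With the replicate block, 8 of all genes were called in batch 1 and 263 in batch 2, and the calls of Ccn2 (1.35, adjusted p = 0.0568) and Tgfbi (-1.19, adjusted p = 0.0858) in batch 2 were not reached. Depth limits Postn, Ccn2 and Tgfbi most.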
